A study of Nasonia vitripennis with 15 samples.

Results

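The testis of the jewel wasp Nasonia vitripennis was compared between red-eyed white nymphs, taken after 24 h at 25 °C, and white nymphs, taken at 0 h at 25 °C, across every RefSeq transcript of the deposited count table. The comparison used 6 of the 15 libraries of the series, 3 pools of testes (A, B and C) a side, and 26279 transcripts of 13999 genes. All pools came from the AsymC laboratory strain, and the labels give 60 testes for each pool. No gene was altered and no agent was given in either group, so that the stage and the 24 h of development are what separates them, and they cannot be told apart. The other 9 libraries of the series (white nymphs at 10 h at 25 °C and 36 °C, and red-eyed nymphs at 24 h at 36 °C) served only to show where the transcripts described here were also seen. Nothing in the labels says that the 3 pools of a group were raised apart, so the p-values measure the spread between these pools.

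Males of this wasp are haploid, and their spermatocytes divide without halving the chromosome set. By the study's methods, the germ cells of the white nymph testis are primary spermatocytes and those of the red-eyed white nymph are secondary spermatocytes. The pupa meanwhile builds its adult cuticle from large families of structural proteins, named CPR, Cpap3, CPLCP, TWDL and apidermin, and the Osiris genes are an insect family of membrane proteins that lie side by side in the genome and act at cuticle surfaces in the fruit fly. A pool of testes holds germ cells, the somatic cells of the gonad and whatever tissue came off with it. In such a bulk sample, more cells of a type and more RNA per cell cannot be told apart.

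The total count was 3716748, 2231479 and 2556211 in the red-eyed libraries A, B and C, and 4332475, 6630161 and 1749769 in white pools A, B and C. Levels are given as CPM, each library's counts divided by the sum over its tested transcripts times a TMM factor. These factors set the bulk of transcripts equal between libraries. The TMM factor was 0.781 for red-eyed pool A, the lowest of the 6. Summed CPM therefore do not reach the same total in every library, and the total is highest in red-eyed pool A. Of the 26279 transcripts, 9928 had no count in these 6 libraries, and 7809 transcripts of 7343 genes had enough counts to be tested. Every adjusted p below comes from edgeR's quasi-likelihood test with Benjamini-Hochberg adjustment over these 7809, and those under 0.05 count as passing. Where 3 values are given for a group, they stand in the order of pools A, B and C.

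Of the 7809 transcripts tested, 1554 were higher in red-eyed pools (19.9%) and 1327 were lower (17.0%), and 4928 did not pass. The rises were the larger changes. The median log2 fold change was 1.44 among the rises and -0.92 among the falls, against -0.05 over all transcripts tested. At least 4-fold changes numbered 354 rises and 63 falls, and at least 16-fold changes 72 rises and 3 falls. A change of at least 64-fold was seen for 33 rises and for 0 falls. The pools of both stages did not overlap for 1536 of the 1554 rises and for 1302 of the 1327 falls, while over all 7809 tested transcripts every red-eyed pool was above every white pool in 26.0% and below in 25.8%. Non-coding RNAs made up 393 of the tested transcripts, of which 143 were higher (36.4%) and 33 were lower (8.40%), against 19.1% and 17.4% of 7401 mRNAs.

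A rise from zero was taken as a transcript with no count in any white pool and at least 1 count in every red-eyed pool. There were 73 such transcripts, from 73 genes, and 5 of them were non-coding. Since the zero in white pools chose them, their calls are a description. Most were rare: 42 had fewer than 20 counts over the 3 red-eyed pools, and the median sum was 12 counts. Only 11 of the 73 passed the filter on low counts, 7 of these passed the test and 4 did not. A fold against zero is given here as a lower bound against 3 counts over the 3 white pools together, or 0.208 CPM.

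NV12630 was the most even of the rises from zero. It had 79.9, 95.3 and 91.7 CPM in red-eyed pools, against 0 in every white pool, so that it was at least 428-fold higher (adjusted p = 3.34e-06). Its red-eyed mean was 88.9 ± 8.08 CPM (SD, n = 3). NV14986 was also even, at a low level, with 5.56, 5.99 and 7.25 CPM in red-eyed pools against 0 in white pools (at least 30.1-fold, adjusted p = 0.000275). Neither gene carries a descriptive symbol in the reference table.

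For 3 others that passed, red-eyed pool A stood above pools B and C. NV17763 had 565, 139 and 217 CPM in red-eyed pools, against 0 in every white pool (at least 1475-fold, adjusted p = 0.0159). NV10782 had 273, 79.4 and 118 CPM against 0 (at least 753-fold, adjusted p = 0.00433), on 1 of its 2 transcripts. LOC100679935 had 158, 37.9 and 53.3 CPM against 0 (at least 399-fold, adjusted p = 0.00709). In each of them the lowest red-eyed pool, pool B, was still far above the floor of 0.208 CPM.

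The others that passed ran the opposite way, with red-eyed pool A well below pools B and C. Pool A was also the lowest red-eyed pool in NV12630 and NV14986, by a smaller margin. Osi8, an Osiris gene, had 8.68, 55.4 and 21.7 CPM in red-eyed pools, against 0 in every white pool (at least 138-fold, adjusted p = 0.00344). NV12636 had 4.86, 18.5 and 17.9 CPM against 0 (at least 66.1-fold, adjusted p = 0.000367). The rises from zero are thus not all highest in 1 pool: over all 73, pool A was the highest in 42, pool B in 21 and pool C in 10. All 7 that passed did so again without any 1 of the 6 pools. Osi8, NV12636 and NV14986 lost their calls with all 15 libraries in 1 fit (adjusted p = 0.0792, 0.123 and 0.105), and NV17763 lost its call with no filter on low counts (adjusted p = 0.0798).

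In the 4 that were tested and did not pass, pool A was again the highest red-eyed pool. LOC100679870 had 1062, 99.3 and 366 CPM in red-eyed pools, against 0 in white pools (adjusted p = 0.0564). The non-coding GeneID100680306 had 355, 49.4 and 123 CPM against 0 (adjusted p = 0.0534). LOC100680543, with 145, 7.99 and 32.8 CPM, and NV13635, with 82.3, 5.99 and 8.95 CPM, were also at 0 in every white pool (adjusted p = 0.102 and 0.101). Pool A held more than 4 times the higher of pools B and C in 14 of the 73. Of these 14 only LOC100680543 and NV13635 were tested, and the others did not meet the filter on low counts. Summed over the 73, red-eyed pools had 3277, 710 and 1179 CPM, so that 63.4% of the summed level came from pool A. The number that passed depended on the filter on low counts, since 44 of the 73 passed with no filter and 29 with DESeq2. It was 11 to 19 when any 1 of the 6 pools was left out (12, 19 and 12 without red-eyed pool A, B and C, and 11, 11 and 16 without white pool A, B and C).

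**Figure D1:**
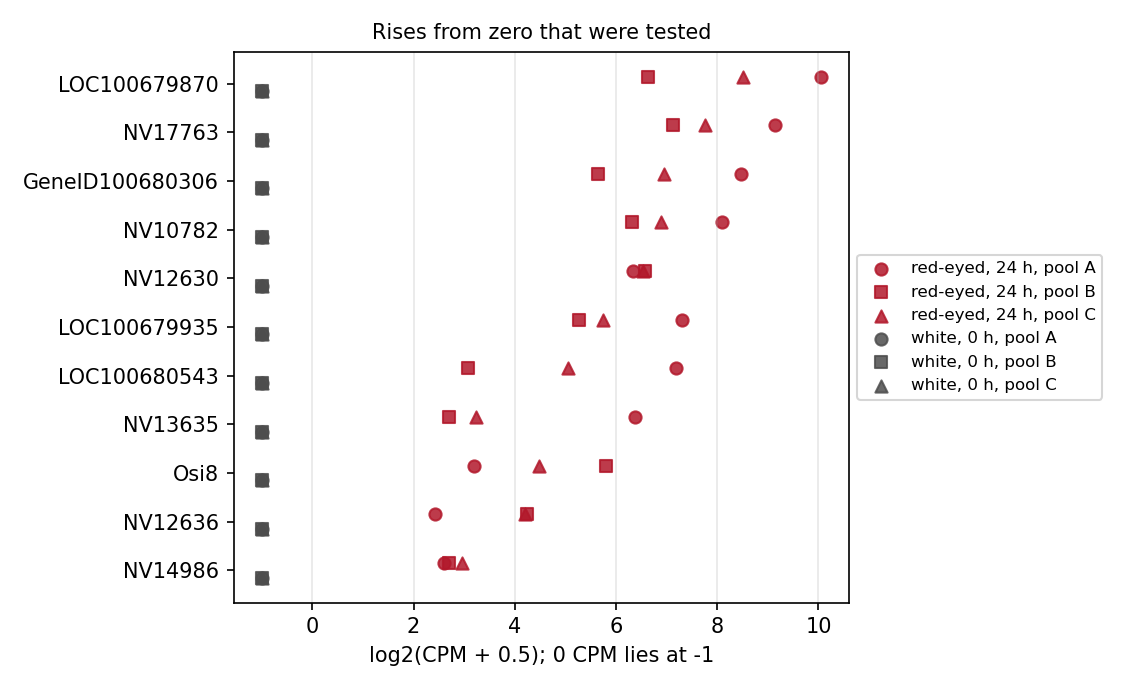
Levels of the 11 tested transcripts with no count in any white pool, as log2(CPM + 0.5), 1 point for each pool (circle A, square B, triangle C), with red-eyed pools in red and white pools in grey. All white points lie at 0 CPM, and NV12630 and NV14986 have close red-eyed pools. Pool A lies highest in the 7 transcripts such as NV17763 and LOC100679870. It lies well below pools B and C in Osi8 and NV12636.

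Some genes that rose from zero lay near each other. In the gene order of RefSeq's assembly Nvit_psr_1.1, 65 of the 73 genes could be placed, and 19 of the 65 (29.2%) had another of them within 5 genes. For the falls to zero described further on, the same held for 12 of 115 genes placed (10.4%). No test of this was made, and a larger set of genes has more chances of near neighbours.

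The longest such run held Osi8, Osi7, NV12630, NV12631 and NV12636, all rises from zero, between Osi19 and NV12630. This stretch of 17 genes was singled out after its values were seen. Of its 17 genes 16 are in the count table, 10 of the 16 had no count in white pools, and 13 had a higher mean in red-eyed than in white pools. The 10 include Osi19 and LOC103317766, which had no count in red-eyed pools either. Some of the 13 rest on very few reads. NV12638 had 1 count and NV12632 had 2 counts, all in red-eyed pool B. NV12641 had 1 count in red-eyed pool B, 1 in red-eyed pool C and 1 in white pool B. The shares over all transcripts are not given, so these counts do not show a joint rise. Only 4 of the 16 were tested, and all 4 were higher, beside the 19.9% of all transcripts. None of these 4 was above 0.131 CPM in any white pool. They met the filter on low counts through the red-eyed pools and could not have been called lower, so their calls are a description. The fourth, NV12637, had 36.8, 73.9 and 57.1 CPM in red-eyed pools, against 0, 0.131 and 0 CPM in white pools (log2 fold change 9.08 ± 0.57 SE, adjusted p = 4.37e-06).

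Osi7, the neighbour of Osi8, had too few counts in 1 pool to be tested, with 3.82, 32.9 and 20.9 CPM in red-eyed pools against 0 in white pools. LOC103317707 had 2.43, 14.0 and 17.9 CPM in red-eyed pools, against 0.426, 0 and 0 CPM in white pools. Pool A was the lowest red-eyed pool in Osi8, Osi7, NV12636, NV12637, LOC103317707 and NV12640 (2.08, 3.49 and 6.82 CPM, against 0, 0.263 and 0.473 CPM in white pools). Other genes of the stretch differed. In LOC103317708 pool A was the highest red-eyed pool (2.08, 0.998 and 0 CPM), and in NV12635 pool B was the lowest (1.39, 0 and 6.82 CPM). The run was not on as a whole: Osi19 and LOC103317766 had no count in any of the 6 pools, and NV12641, NV12638 and NV12632 stayed below 1 CPM in every pool.

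**Figure D2:**
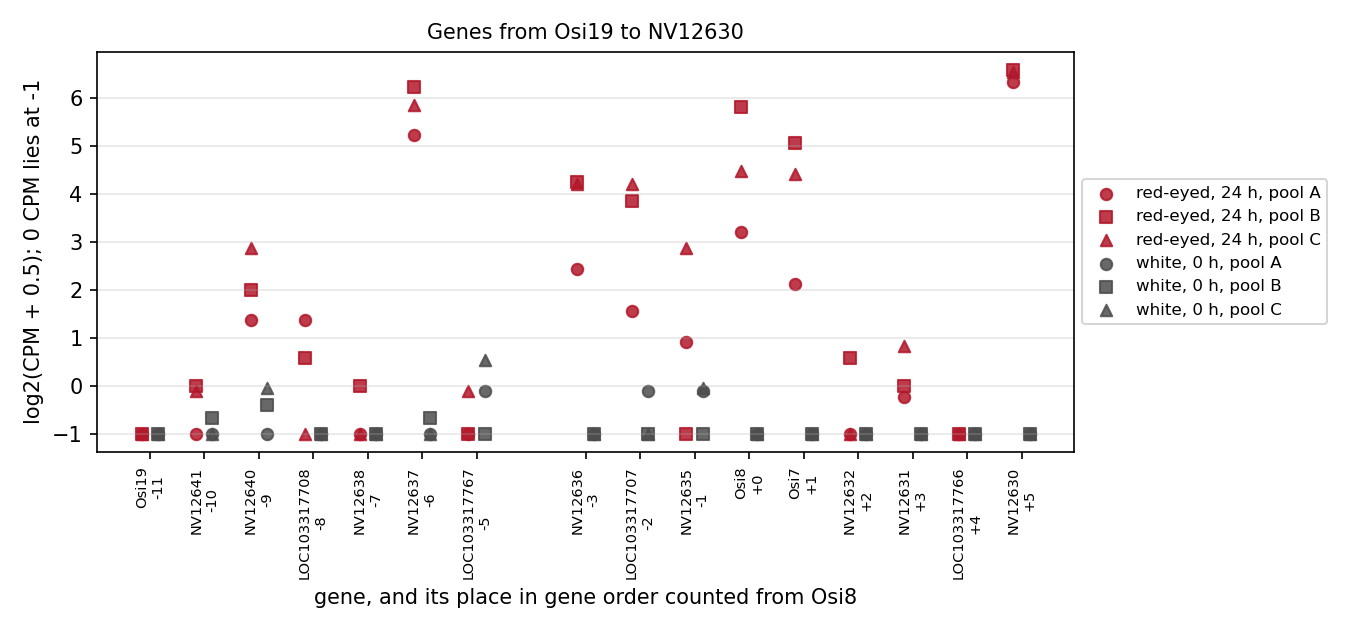
Levels of the 16 genes from Osi19 to NV12630, as log2(CPM + 0.5), placed by their order along the assembly and counted from Osi8, with red-eyed pools in red to the left of white pools in grey (circle A, square B, triangle C). NV12637, NV12636, Osi8, Osi7 and NV12630 lie above 1 CPM in every red-eyed pool and at or near 0 in white pools, while Osi19 and LOC103317766 lie at 0 throughout.

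The largest rises outside the genes that the study names were mostly transcripts at the edge of detection in white pools. LOC103315476 had 131, 40.4 and 65.7 CPM in red-eyed pools, against 0.213, 0 and 0 CPM in white pools (log2 fold change 9.58 ± 0.75 SE, adjusted p = 4.77e-05). LOC103316012 had 179, 24.5 and 53.3 CPM against 0.213, 0 and 0 CPM (9.69 ± 1.42 SE, adjusted p = 0.00382), and it lost its call without white pool A. Every red-eyed pool was above every white pool in both.

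By gain in level, the largest rises were of transcripts already present in white pools. NV17199 had 23963, 14589 and 14691 CPM in red-eyed pools, against 8004, 5995 and 4384 CPM in white pools, the largest gain of all (log2 fold change 1.53 ± 0.36 SE, adjusted p = 0.0065). GeneID103316119, NV17569, LOC103317397, LOC100677964, NV18349, NV12617, LOC100680151 and NV16804 followed, with log2 fold changes of 1.24 to 2.55. The last of the 10 was NV13665, an alpha-tubulin, with 13321, 10672 and 9952 CPM in red-eyed pools, against 6660, 6881 and 5452 CPM in white pools (0.84 ± 0.30 SE, adjusted p = 0.0432). Its call was lost when any pool but white pool B was left out, and reads of near-identical tubulin copies may have been split between genes. The 1554 rises summed to 775426, 592285 and 547483 CPM in red-eyed pools, against 244537, 257926 and 178105 CPM in white pools.

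Among the 15 rises of lowest p with a known identity, NV18317 had the largest change. It is the counterpart of the fruit fly Act88F, the actin of the indirect flight muscle. It had 1141, 590 and 586 CPM in red-eyed pools, against 36.0, 11.3 and 25.1 CPM in white pools (log2 fold change 5.02 ± 0.49 SE, adjusted p = 0.000275). The other muscle markers differed among themselves. Tm1, a tropomyosin, had on 1 of its 18 transcripts 437, 352 and 340 CPM in red-eyed pools, against 483, 295 and 381 CPM in white pools (-0.04 ± 0.21 SE, adjusted p = 0.909). The troponin C genes NV17687, NV18893 and NV11095 stayed below 2 CPM in every pool, and NV15310, also a troponin C, had 12.9, 2.00 and 4.69 CPM in red-eyed pools against 0, 0.131 and 0 CPM in white pools. The whole muscle list summed to 933 to 1594 CPM in red-eyed pools and to 308 to 520 CPM in white pools, and its part in other results was not tested.

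The other rises named for a low p and a known identity were smaller. NV13442, the counterpart of klhl10, which in the fly acts in a ubiquitin ligase of developing sperm, had 2671, 1977 and 1798 CPM in red-eyed pools, against 475, 630 and 321 CPM in white pools (log2 fold change 2.17 ± 0.29 SE, adjusted p = 0.00036). NV13156, related to the fly thioredoxins that include the testis form TrxT, had on 1 of its 2 transcripts 503, 413 and 315 CPM against 113, 118 and 77.6 CPM (1.99 ± 0.22 SE, adjusted p = 0.000186). Their red-eyed and white pools were well apart. Fgfr1op and Mospd2 rose by 1.17 and 1.31 on the log2 scale, and Scm, a Polycomb group protein, by 1.07. The odorant receptor Or266 rose by 1.99, with 123, 86.9 and 84.0 CPM in red-eyed pools against 21.7, 29.0 and 22.7 CPM in white pools (adjusted p = 0.000168).

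Of the axoneme and tubulin list, 9 of 11 tested transcripts were higher and none was lower, beside 19.9% and 17.0% of all transcripts tested. The list's median log2 fold change was 1.33, against -0.05 over all transcripts. This list was made from genes of the study's own tables and holds several that its text names as raised, so it is no independent view of direction. NV16467, a dynein chain by the study, had 3359, 3765 and 3481 CPM in red-eyed pools, against 562, 1365 and 552 CPM in white pools (2.095 ± 0.36 SE, adjusted p = 0.00109). Tektin-C, a filament protein of the sperm tail (NV13124), had on 1 of its 2 transcripts 35.8, 60.9 and 36.7 CPM against 7.46, 24.2 and 17.0 CPM (1.43 ± 0.38 SE, adjusted p = 0.0125). Its other transcript did not pass (1.46 ± 0.59 SE, adjusted p = 0.0702). Pool A was the highest red-eyed pool in 5 of the 9, but not in NV16467 or the Tektin-C transcript that passed.

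Of 67 tested transcripts of the oxidative phosphorylation list, 8 were higher and 3 were lower (11.9% and 4.48%, beside 19.9% and 17.0% of all transcripts tested), with a median log2 fold change of -0.0023. Cox7a1, a small subunit of cytochrome c oxidase, had on 1 of its 2 transcripts 83.0, 68.9 and 43.9 CPM in red-eyed pools, against 17.9, 23.4 and 17.0 CPM in white pools (1.73 ± 0.26 SE, adjusted p = 0.000563). Cox4I1, another subunit of the same enzyme, had on 1 of its 3 transcripts 3.82, 5.49 and 5.54 CPM in red-eyed pools, against 12.6, 14.3 and 19.4 CPM in white pools (-1.63 ± 0.35 SE, adjusted p = 0.00369). Of 18 tested glutathione S-transferase transcripts 3 were higher and 3 were lower, close to the shares over all transcripts. GstS5 rose on both of its tested transcripts, by 2.60 and 2.098 on the log2 scale, while GstS3 fell by 1.22.

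The falls were moderate, and no abundant transcript was lost. A fall to zero, with no count in any red-eyed pool and at least 1 in every white pool, was seen for 136 transcripts of 135 genes. All were rare, with a median of 6 counts over the white pools together, 131 of them under 20 counts, and 0 of the 136 were tested under the filter on low counts. With no filter 19 of them passed in edgeR and 56 had an unadjusted p under 0.05, and 4 passed in DESeq2. The highest mean was that of GeneID100678784, with 0 in every red-eyed pool against 23.5, 0.788 and 4.73 CPM in white pools, so that white pool A alone held most of its counts. It was at least 23.3-fold lower, against a floor of 3 counts over the 3 red-eyed pools (0.415 CPM). NV17187 had 0 in red-eyed pools against 15.4, 0.525 and 2.36 CPM in white pools, again with white pool A highest.

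NV10385 had the largest fall by the rule used to name genes. It had 1.04, 7.99 and 0.426 CPM in red-eyed pools, against 77.6, 19.4 and 44.5 CPM in white pools (log2 fold change -4.01 ± 0.91 SE, adjusted p = 0.0139). The call was lost without white pool C (adjusted p = 0.0673), with no filter on low counts (0.0745) and with the pool letter as a block (0.161). The other 9 of the 10 largest falls had log2 fold changes of -2.78 to -2.54 and closer pools. NV12997 had 21.5, 27.5 and 23.9 CPM in red-eyed pools, against 202, 109 and 171 CPM in white pools (-2.73 ± 0.25 SE, adjusted p = 6.69e-05). NV17608 had 21.9, 54.9 and 25.2 CPM against 222, 174 and 298 CPM (-2.78 ± 0.34 SE, adjusted p = 0.000376), and NV11188 had 52.4, 84.4 and 98.0 CPM against 460, 292 and 618 CPM (-2.55 ± 0.30 SE, adjusted p = 0.000247). None of these 3 has a descriptive symbol, and in each the highest red-eyed pool lay well below the lowest white pool.

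nAChRa4, a subunit of the nicotinic acetylcholine receptor, was the 1 gene with a descriptive symbol among the 10. It had on 1 of its 2 transcripts 1.39, 0.499 and 2.56 CPM in red-eyed pools, against 10.4, 10.1 and 10.9 CPM in white pools (log2 fold change -2.76 ± 0.46 SE, adjusted p = 0.000988). It was the 1 member of the nerve list that passed, among 8 tested, beside 19.9% higher and 17.0% lower over all transcripts tested. The nerve list summed to 75.3 to 83.9 CPM in red-eyed pools and to 75.7 to 129 CPM in white pools.

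**Figure D3:**
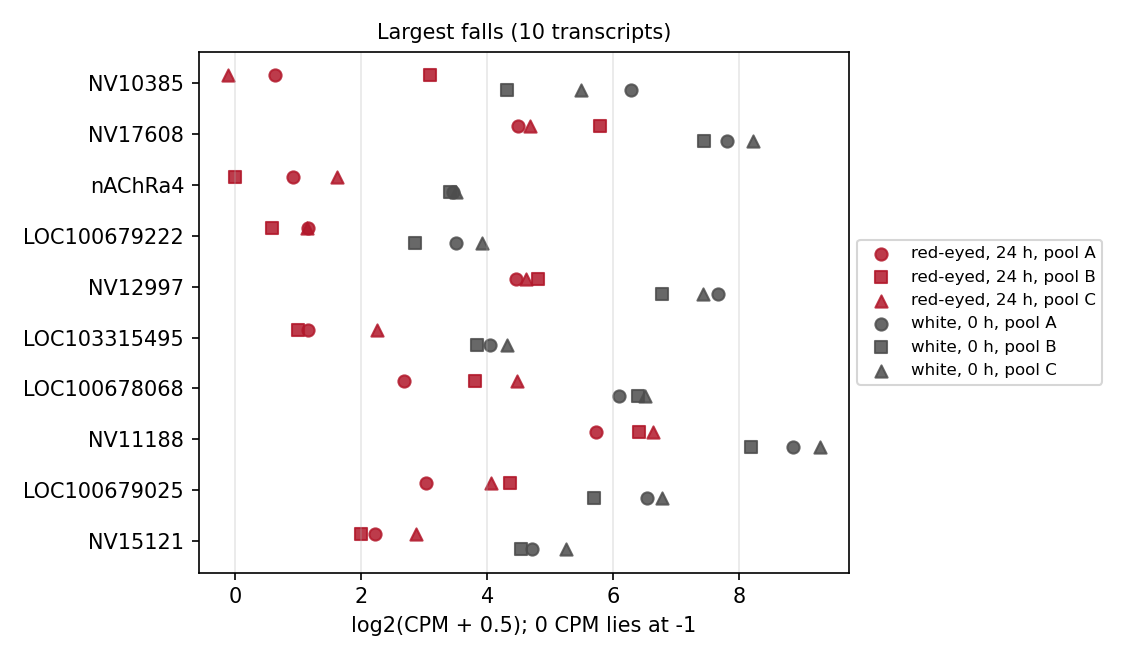
Levels of the 10 transcripts with the largest falls among those of at least 10 CPM in white pools with no overlap of pools, as log2(CPM + 0.5), 1 point for each pool (circle A, square B, triangle C), with red-eyed pools in red and white pools in grey. The red-eyed points lie left of the white points in all 10, and red-eyed pool B of NV10385 (7.99 CPM) lies apart from pools A and C.

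Germ line genes were among the falls with a known identity. oskar, which in the fly founds the germ plasm of the egg, had 142, 174 and 211 CPM in red-eyed pools, against 685, 543 and 614 CPM in white pools (log2 fold change -1.81 ± 0.20 SE, adjusted p = 0.000186). NV12150, of the aub and piwi family that silences transposons in the germ line, had on 1 transcript 0, 2.00 and 2.13 CPM in red-eyed pools, against 8.74, 8.27 and 8.98 CPM in white pools (-2.73 ± 0.61 SE, adjusted p = 0.00506). Another transcript of the same gene did not pass (0.13 ± 0.43 SE, adjusted p = 0.844). NV16500, of that family too, had 6.94, 6.99 and 5.97 CPM against 10.4, 12.5 and 15.6 CPM (adjusted p = 0.0397). Its call was lost without red-eyed pool A, B or C and without white pool C. It was also lost with DESeq2 (adjusted p = 0.0945), with no filter on low counts (0.0534) and with all 15 libraries in 1 fit (0.0655). In all, 3 of 6 tested transcripts of the piRNA and germ line list were lower and none was higher, beside 17.0% and 19.9% of all transcripts tested.

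Of 6 tested transcripts in the cell cycle list, 2 were higher and 1 was lower, beside 19.9% and 17.0% of all transcripts tested. Cdk4, a kinase of cell cycle entry, fell by 1.14 on the log2 scale (adjusted p = 0.00444). In the same list fzy, an activator of the anaphase promoting complex, rose by 1.28 on 1 of its 3 transcripts (adjusted p = 0.00558).

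Further falls named for a low p and a known identity were of genes with different roles. Ctps, which makes CTP, had 96.9, 146 and 188 CPM in red-eyed pools, against 550, 401 and 524 CPM in white pools (log2 fold change -1.78 ± 0.24 SE, adjusted p = 0.000374). Nop60b-like, named after a fly enzyme that modifies ribosomal RNA, had 37.5, 53.9 and 62.7 CPM against 166, 138 and 198 CPM (-1.70 ± 0.22 SE, adjusted p = 0.000295). The splicing factor Sf3b3 fell by 1.20, and NV18665, the counterpart of the fly gene mod, fell too (adjusted p = 0.000239). Timm50, of the mitochondrial protein import channel, fell by 1.15, and NV14612, an importin alpha (Pen in the fly), fell by 1.01. In each of these genes pool A was the lowest red-eyed pool.

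The loss in level was spread over many transcripts. NV16369 showed the largest, with 1622, 1817 and 1657 CPM in red-eyed pools, against 5485, 3182 and 5010 CPM in white pools (log2 fold change -1.42 ± 0.28 SE, adjusted p = 0.00256). NV17008 had 733, 1329 and 1774 CPM in red-eyed pools, against 3154, 3630 and 3010 CPM in white pools (-1.35 ± 0.32 SE, adjusted p = 0.00638). The 1327 falls summed to 100104, 111200 and 118238 CPM in red-eyed pools, against 216591, 182176 and 215513 CPM in white pools.

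Red-eyed pool A was the most changed of the 3 red-eyed pools. It was the highest red-eyed pool in 1109 of the 1554 rises (71.4%), against 37.6% of all transcripts tested, and pools B and C were highest in 277 and 168. Among the 1327 falls it was the lowest red-eyed pool in 811 (61.1%), against 39.2% of all tested. With plain CPM, without TMM factors, these shares were 50.6% against 20.7% for rises and 80.6% against 58.6% for falls, so that the scaling moved both shares and their background together. These counts describe the transcripts that the same 3 pools had called.

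Most calls did not rest on pool A, however. Without it, 1297 of 7860 tested transcripts were higher (16.5%) and 864 were lower (11.0%). Of the 1554 rises, 1256 (80.8%) passed again, 31 could not be tested and 0 turned direction, and of the 1327 falls 840 (63.3%) passed again and 0 turned. Leaving out pool B kept 1301 rises and 791 falls, and leaving out pool C kept 1372 rises and 926 falls. The count of falls was cut by more than 1.5 times without red-eyed pool A, without red-eyed pool B (835) and without white pool C (864). The median log2 fold change of the 1554 rises was 1.31 without pool A, 1.50 without pool B and 1.58 without pool C.

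**Figure D4:**
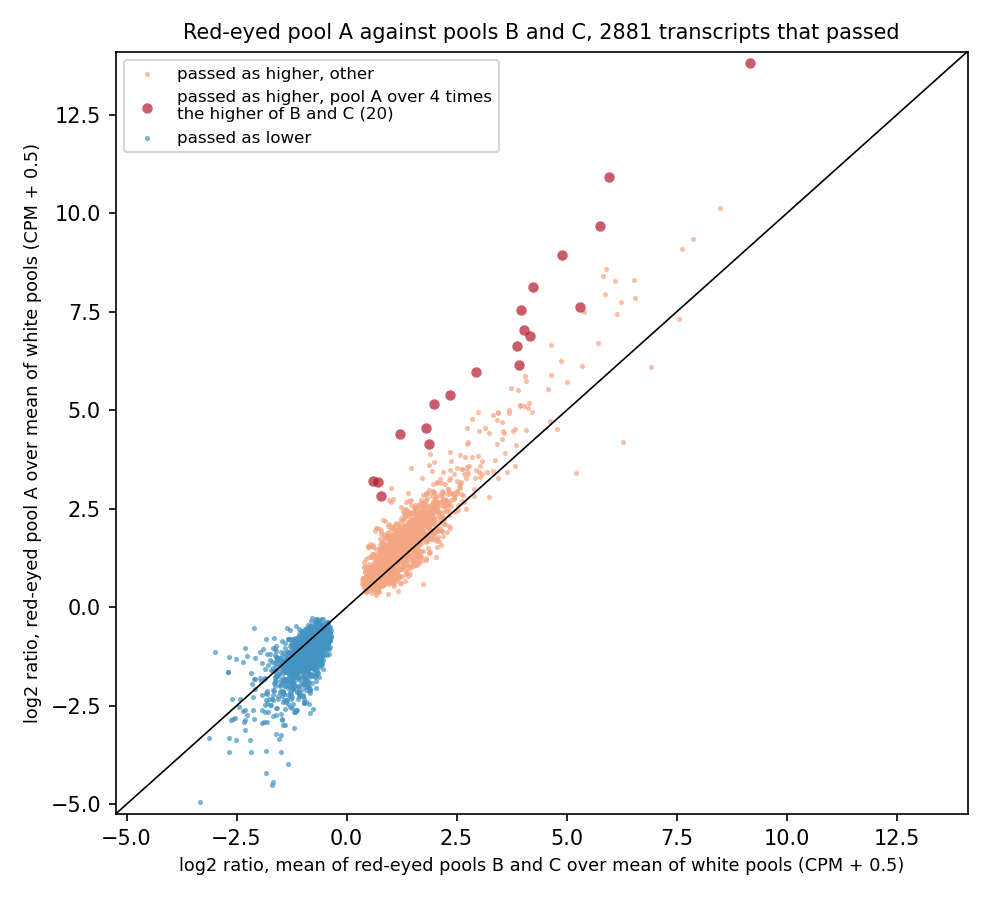
Change of each of the 2881 transcripts that passed, as the log2 ratio to the mean of the white pools (CPM + 0.5), in red-eyed pool A (vertical axis) and in the mean of red-eyed pools B and C (horizontal axis), with the line of equal change. Most rises and falls lie near the line, the 20 transcripts carried by pool A lie far above it, and a few rises such as Osi8 and NV12636 lie below it.

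A small set of rises was carried by pool A, taken as transcripts that passed as higher with a CPM in pool A over 4 times the higher of pools B and C. There were 20 of these, and 0 for pool B and 0 for pool C under the same rule. Over 2 times, the counts were 91, 4 and 1 for pools A, B and C, and over 10 times they were 6, 0 and 0. NV10770 lay just inside the limit with 4.01 times, and NV50197 just outside with 3.88 times. Together the 20 summed to 16875 CPM in pool A, 816 CPM in pool B and 883 CPM in pool C. The number is sensitive to which white pools are kept, since 1, 2 and 5 were carried by pool A without white pool A, B and C, and to the filter, since 83 were carried with none. It was 43 and 40 without red-eyed pools B and C.

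Of the 20, 6 belong to the epidermis and cuticle list, which held 11 of the 1554 rises and 17 of the 7809 transcripts tested. The list was chosen with earlier results of these data known. apd-3, an apidermin with the highest level of the set, had 10265, 364 and 456 CPM in red-eyed pools, against 0.639, 0 and 0 CPM in white pools (log2 fold change 13.88 ± 2.88 SE, adjusted p = 0.0216). TWDL1, a Tweedle cuticle protein, had on 1 of its 4 transcripts 309, 44.4 and 31.1 CPM against 6.82, 3.68 and 2.84 CPM (4.80 ± 1.27 SE, adjusted p = 0.0429). CPLCP3 had 122, 8.49 and 11.1 CPM against 0, 0 and 0.473 CPM (adjusted p = 0.0293), and Cpap3-a1, of a family of chitin-binding cuticle proteins, had 75.3, 10.5 and 7.25 CPM against 0.213, 0 and 0 CPM (adjusted p = 0.00878). In all of these pools B and C were above every white pool as well, and each of these 4 lost its call without any 1 of the white pools.

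Other members have no cuticle name. NV10135 had 3841, 97.3 and 146 CPM in red-eyed pools, against 1.92, 1.05 and 1.42 CPM in white pools (log2 fold change 9.88 ± 2.47 SE, adjusted p = 0.0365). NV10738 had 576, 46.9 and 27.7 CPM against 0, 0.131 and 0.473 CPM (adjusted p = 0.0332). C1q-VP, named for a C1q domain and venom, had 401, 97.3 and 62.2 CPM against 2.35, 1.31 and 0.946 CPM (6.85 ± 1.14 SE, adjusted p = 0.00918). Without red-eyed pool A these 3 still passed, with log2 fold changes of 6.43, 7.77 and 5.64. NV10135 and NV10738 lost their calls without any of the white pools, NV10738 also without red-eyed pool B, and C1q-VP without white pool A or C.

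The calls of these transcripts changed with the pool left out. Leaving out red-eyed pool A also takes away its spread, which leaving out a white pool keeps, so these fits cannot be ranked against each other. Of the 20, 1 passed without white pool A, 2 without white pool B and 1 without white pool C, and 8 passed with no filter on low counts. Without red-eyed pool A, 16 of the 20 passed, 3 did not and 1 could not be tested. All 19 that were tested stayed higher in red-eyed pools, each with a smaller log2 fold change than with pool A. apd-3 then had a log2 fold change of 10.75 (adjusted p = 2.03e-08), a smaller change with a smaller p. NV10098, NV10473 and NV15640 were the 3 that no longer passed (adjusted p = 0.223, 0.129 and 0.365), and CPLCP1 was the one left untested on that transcript. In DESeq2, 15 of the 20 passed and the other 5 got no p, as its outlier filter set them aside.

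Further transcripts were seen in pool A nearly alone and were not called at all. By a rule set after the data were seen, a level of at least 10 CPM in 1 pool and over 10 times the highest of the other 5 pools was met by 41 transcripts in red-eyed pool A. It was met by 0 in red-eyed pools B and C, and by 2, 0 and 0 in white pools. Of the 41, 6 passed as higher, 8 did not pass and 27 were not tested, since a transcript with counts in 1 pool did not meet the filter. The cuticle proteins CPR19 (391, 2.50 and 3.84 CPM in red-eyed pools, against 0, 0.263 and 0.946 CPM in white pools), CPR34 (373, 0.998 and 3.84 CPM against 0, 0 and 0.473 CPM) and CPR16 (160, 0 and 0 CPM against 0 in every white pool) were among the 27. CPR16 was the 1 transcript of the 41 at 0 in all of the other 5 pools.

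As a list, 64 epidermis and cuticle transcripts of 50 genes were in the table, 23 had no count in the 6 pools and 17 were tested. Of the 17, 11 were higher and 0 were lower, beside 19.9% and 17.0% of all transcripts, with a median log2 fold change of 3.67. Several of them, such as apd-3, CPLCP3 and Cpap3-a1, were near 0 in white pools. They met the filter on low counts through red-eyed pools and could not have been called lower. The list was also chosen with earlier results of these data known, so its counts are a description. Without red-eyed pool A, 9 of 14 tested were higher and 0 were lower. The list summed to 12653, 713 and 757 CPM in red-eyed pools, against 212, 128 and 113 CPM in white pools, and apd-3 made up most of the sum in pool A. In CPR37 and CPR3 pool A was not far above the other red-eyed pools: CPR37 had 10.1, 8.98 and 3.84 CPM in red-eyed pools against 1.28, 0.263 and 0 CPM in white pools (3.69 ± 0.68 SE, adjusted p = 0.00168), and CPR3 had 11.1, 16.0 and 14.1 CPM against 5.76, 9.19 and 4.26 CPM (1.02 ± 0.36 SE, adjusted p = 0.0403).

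Marker lists of other tissues that a testis preparation could hold differed in how they moved. The muscle list given above was higher in every red-eyed pool than in every white pool, and it was highest in red-eyed pool A, as the cuticle list was. That separation came mostly from NV18317 (1141, 590 and 586 CPM in red-eyed pools, against 36.0, 11.3 and 25.1 CPM in white pools). The pools of both stages overlapped for the tested Tm1 transcript. The 2 haemocyte transcripts, ppo1 and ppo3, summed to 1.74 to 2.98 CPM in red-eyed pools and to 2.36 to 4.33 CPM in white pools and were not tested. Of 4 tested gut peptidases, NV18253 was lower and the other 3 did not pass, beside 19.9% higher and 17.0% lower over all transcripts tested. The gut list summed to 91.7 to 104 CPM in red-eyed pools and to 107 to 119 CPM in white pools. Of 2 tested transcripts of the fat body and haemolymph list, 1 was higher and 1 did not pass. Hex70b, a hexamerin storage protein, had on 1 of its 2 transcripts 77.1, 67.9 and 66.1 CPM in red-eyed pools, against 30.5, 49.0 and 23.2 CPM in white pools (log2 fold change 1.01 ± 0.25 SE, adjusted p = 0.0088). Hex109 had 6.94, 3.99 and 4.69 CPM in red-eyed pools, against 7.67, 6.96 and 5.20 CPM in white pools (-0.35 ± 0.37 SE, adjusted p = 0.493). Dsx, the 1 marker matched for somatic cells of the gonad, had 6.25, 3.99 and 6.39 CPM against 8.31, 5.52 and 6.62 CPM on its tested transcript (adjusted p = 0.591). The part of other tissue in the rises of cuticle genes was not tested.

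The transcripts that rose from zero were also seen in pools that had not chosen them. At 10 h at 25 °C, still labelled white nymphs, 27, 55 and 30 of the 73 had a count in pools A, B and C, and at 10 h at 36 °C 27, 61 and 12 did. At 24 h at 36 °C the numbers were 48, 55 and 57. With levels scaled over all 15 libraries, NV12630 had 4.50, 75.4 and 6.33 CPM in pools A, B and C at 10 h at 25 °C, between 0 at 0 h and 82.5, 94.9 and 91.9 CPM at 24 h. Osi8 had 0.711, 43.9 and 2.11 CPM at 10 h at 25 °C, and 0.142, 54.5 and 0 CPM at 10 h at 36 °C. In each of these groups pool B was high and pools A and C were low, within pools that share the stage label.

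The transcripts carried by red-eyed pool A were not high in the other pools named A. apd-3 had 0, 211 and 17.9 CPM in pools A, B and C at 10 h at 25 °C, 0.426, 463 and 0.492 CPM at 10 h at 36 °C, and 29.1, 102 and 1028 CPM at 24 h at 36 °C, on the scale of 15 libraries. The highest pool was thus B at 10 h at both temperatures and C at 24 h at 36 °C. Summed over the 20, pools A, B and C had 150, 444 and 2008 CPM at 24 h at 36 °C, against 17430, 812 and 885 CPM at 24 h at 25 °C. The falls showed pool B apart at 10 h too: NV12997 had 91.4, 36.0 and 55.4 CPM at 10 h at 25 °C and 124, 19.4 and 155 CPM at 10 h at 36 °C, beside 202, 114 and 175 CPM at 0 h and 22.2, 27.3 and 23.9 CPM at 24 h at 25 °C. Pool B at 10 h at 36 °C was thus below all red-eyed pools at 24 h at 25 °C. The muscle list summed to 451, 845 and 386 CPM in pools A, B and C at 10 h at 25 °C, and to 440, 788 and 389 CPM at 10 h at 36 °C. Pool B was thus highest there as well, mostly through NV18317. That transcript had 84.3, 503 and 109 CPM at 10 h at 25 °C and 21.4, 470 and 11.8 CPM at 10 h at 36 °C. The tested Tm1 transcript was highest in pool A in both groups. The part of muscle in these levels was not tested. No test was made on these groups.

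**Figure D5:**
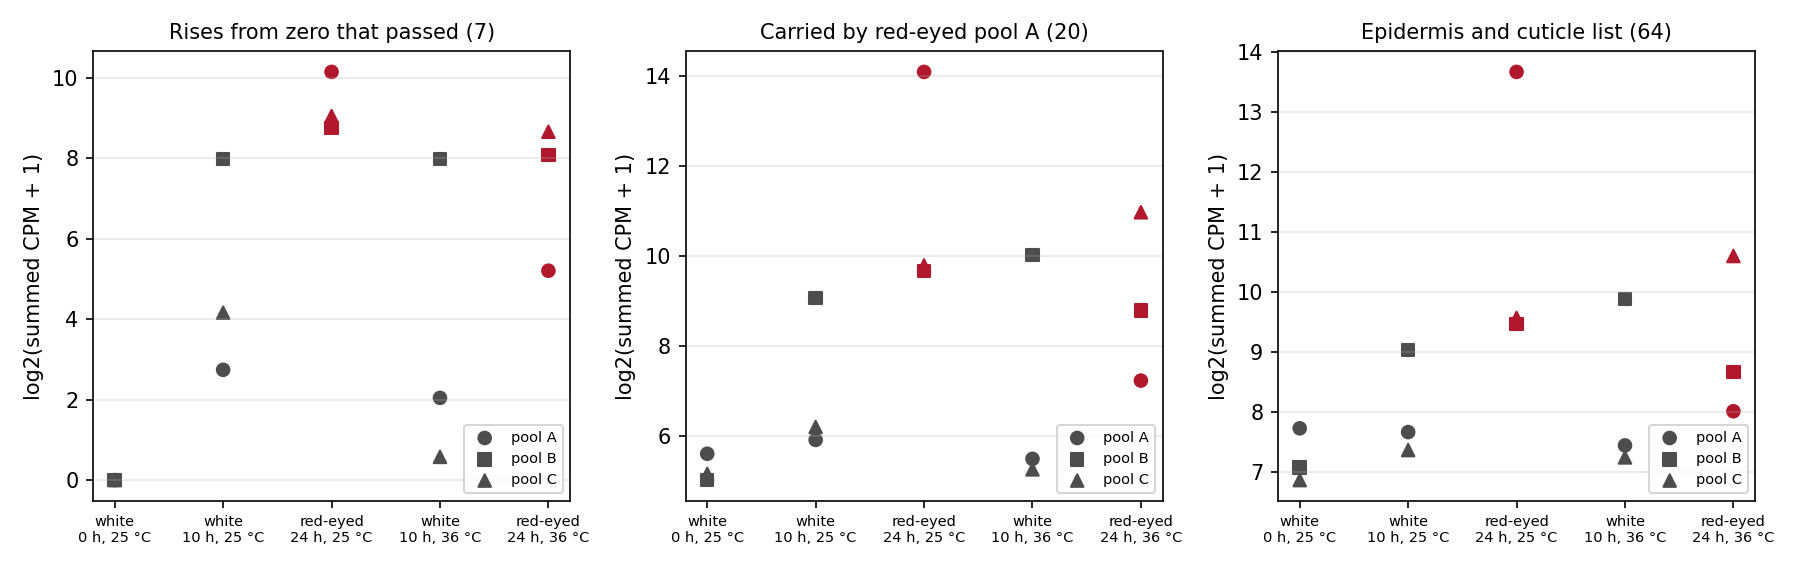
Summed level of the 7 rises from zero that passed, the 20 transcripts carried by red-eyed pool A and the 64 transcripts of the epidermis and cuticle list in all 15 libraries, as log2(summed CPM + 1) with TMM factors over 15 libraries, by group in order of time at 25 °C and then at 36 °C (circle A, square B, triangle C, red-eyed nymphs in red and white nymphs in grey). The rises from zero lie at 0 in all pools at 0 h, pool B lies above pools A and C at 10 h at both temperatures, and red-eyed pool A at 25 °C lies far above the others in the panels of the carried transcripts and of the cuticle list.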

How the data were processed

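RNA of pooled testes was sequenced from stranded mRNA libraries, per the labels. TopHat2 (2.1.0 in the submitters' processing notes) was the aligner and Nvit_2.1 the build. The authors deposited raw counts, 1 row for a RefSeq transcript, in 6 tables; the notes name featureCounts 1.6.3 as the counter, whereas the methods name htseq-count. How the counting treated strand and reads shared by similar genes is not known here. The tables' fold changes, p-values and 54 other columns of normalized values were not used. The 39 count columns that recur between tables were identical in all 39 cases, and no pair of pools of a group was alike enough to be a library deposited again.

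The 6 libraries were fitted with edgeR 4.0.16 (R 4.3.3: filterByExpr, TMM, robust quasi-likelihood test, Benjamini-Hochberg over 7809 transcripts), and the test was checked on simulated data. A standard error was taken as the size of the log2 fold change over the root of its F statistic. Alternatives were DESeq2 1.42.0, other size factors and filters, all 15 libraries, a block for the pool letter, counts per gene, and each pool left out. Whether pools with the same letter pair was not clear, as given with the limits, and the main fit had no block. Symbols came from the RefSeq table of Nvit_psr_1.1, which matched 11605 of 13999 genes, 872 with a descriptive symbol. Fly counterparts came from the study's supplementary tables for 165 genes.

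Transcripts named are the 10 largest rises and falls (group mean of 10 CPM or more, pools apart, outside genes the study's text names), rises from zero, the 10 highest carried by pool A, the 10 largest gains and losses in CPM, the 15 lowest p per direction with a known identity, and the 4 lowest p of each of 24 lists, by examples where many. Lists and members were chosen with earlier results of these data known. The recombination and repair list is not reported here. The counts that follow stand beside 19.9% higher and 17.0% lower over all transcripts tested. Of the lists not described in the report, none of 8 small heat shock transcripts tested was higher and 1 was lower. The counts of higher and lower transcripts were 3 and 1 of 11 tested for other chaperones, 1 and 1 of 3 for nuclear transport, 0 and 2 of 6 for mitochondrial carriers, and 0 and 2 of 4 for ribosomal proteins. They were 1 and 1 of 10 for cytochrome P450, 3 and 0 of 6 for yellow and royal jelly proteins, and 6 and 1 of 22 for odorant and gustatory receptors. The ecdysone list had 1 tested transcript, which did not pass, and the NK homeobox list and the odorant binding list had none. Figures were drawn with matplotlib 3.10.9 in Python 3.11.15. No promoter, protein or genome sequence was used here.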

Additional observations from a re-analysis of the deposited data

Results flagged for a closer look

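A signal of the rises from zero was present in libraries outside the comparison. The 7 rises from zero that passed summed to 252 CPM (scaled over 15 libraries) in pool B of the white nymphs at 10 h at 25 °C, against 5.68 and 16.9 CPM in pools A and C of that group and 0 in the 3 white pools at 0 h. They summed to 251.7 CPM in pool B at 10 h at 36 °C, against 3.12 and 0.492 CPM in pools A and C. No group had 4 or more pools, so single pools were not tested as outliers.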

How the results depend on the processing

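The 3 pools a group limit every test here, and white pool C was the shallowest library, so that transcripts under about 10 counts a pool could hardly be tested. Falls numbered 1327 in the report, 565 at 2-fold or more, and 835 to 1636 with 1 pool left out, and rises 1554, 1169 at 2-fold or more and 1213 to 1787. With counts summed per gene they were 1502 higher and 1303 lower, with DESeq2 1575 and 1190, and with all 15 libraries 1628 and 1438. Rises from zero that passed (7) numbered 44 with no low-count filter, 29 with DESeq2, 13 with all 15 libraries, 19 with at most 1 count in each white pool, and 11 to 19 with 1 pool left out, and at least 10 counts in every library left none to test. Falls to zero (136) were 547 with at most 1 count in each red-eyed pool. Transcripts carried by pool A (20) were 91 over 2 times, 6 over 10 times, 83 with no filter, 5 with at least 10 counts in every library, 62 with DESeq2, 45 with all 15 libraries and 1 to 43 with 1 pool left out. For rises from zero, the fits other than those without a red-eyed pool were added after the data were seen, and for transcripts carried by pool A every other fit was, and the causes of these shifts were not tested. Of 116 named calls, 82 passed in each of the 6 fits with a pool left out, and no named call turned direction in any alternative.

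The methods state that each sequencing multiplex held a library of each stage, and whether the pool letters mark these sets is not known here. Deviations from the group means correlated at 0.341 for pools A, the highest of all pairs, 0.0937 for pools B and 0.0462 for pools C. Red-eyed pool C correlated better with white pool B (0.208) than with its own letter. A pairing by letter was thus not clear, and the main fit had no block. With the letter as a replicate block, 1844 were higher and 1637 lower, 11 rises from zero passed and 34 were carried by pool A.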
